A study of Mus musculus with 2 samples.

Results

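The phagocyte NADPH oxidase is the enzyme complex that makes superoxide. The 5 subunit genes Cybb, Cyba, Ncf1, Ncf4 and Rac2 were chosen by name, from 22180 genes with a probe set of their own on the array. The deposited table held 1 Affymetrix whole-transcript array per group, so each value below comes from 1 array, no difference has a replicate check and no test was possible. Both arrays held RNA of spleen cells from Fx-/- mice. The Fx gene (current symbol Gfus) encodes an enzyme that makes GDP-fucose from mannose, so fucosylated glycans in these mice depend on supplied fucose. The on-fucose array came from fucose-treated mice and the off-fucose array from mice labelled with no fucose treatment, and neither group was wild type. The labels used here give no strain, age or sex of the mice, and no number of animals per array. Cells were depleted of B220- and CD11b-bearing cells with beads and then selected for CD11c, and both samples were labelled conventional type 1 dendritic cells (cDC1). The comparison asks how transcript levels of the oxidase differ between cells of mice with and without a fucose supply. Sex-linked genes also separated the arrays, as given below. Sex and fucose supply therefore cannot be told apart for any gene here.

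The catalytic core of the oxidase is flavocytochrome b558, a membrane pair of NOX2 (also called gp91-phox, made by Cybb) and its partner p22-phox (made by Cyba). NOX2 carries electrons from NADPH across the membrane to oxygen, and p22-phox stabilises NOX2 and gives the cytosolic subunits a docking site. On activation the organiser p47-phox (Ncf1), p40-phox (Ncf4), which binds a phosphoinositide of phagosome membranes, and the GTPase Rac2 join the core. Loss of NOX2, p22-phox or p47-phox causes chronic granulomatous disease, in which phagocytes fail to kill ingested microbes. In cDC1 the oxidase is known for slowing acidification of phagosomes, which preserves antigen for cross-presentation. Cybb is largely restricted to phagocytes, B cells and dendritic cells, whereas Cyba is expressed more widely and Rac2 is found in blood cells in general, T cells included.

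The promoters of Cybb and Cyba are shown because the membrane pair they encode gave unlike values on these arrays. The windows span 250 bases before to 50 after the RefSeq start site (build GRCm38.p6), on the minus strand in both genes, at chrX:9469275-9469574 for Cybb and chr8:122432891-122433190 for Cyba. The start site of the Cybb window lies inside the annotated span of that gene, not at its upstream end, and other start sites were not looked at. Capitals mark GGAA or its reverse complement TTCC, the core bound by ETS factors such as PU.1, and on either strand the ETS-IRF composite element, GGAA followed after a gap of 2 bases by GAAA, which PU.1 and IRF8 can bind together.
Cybb: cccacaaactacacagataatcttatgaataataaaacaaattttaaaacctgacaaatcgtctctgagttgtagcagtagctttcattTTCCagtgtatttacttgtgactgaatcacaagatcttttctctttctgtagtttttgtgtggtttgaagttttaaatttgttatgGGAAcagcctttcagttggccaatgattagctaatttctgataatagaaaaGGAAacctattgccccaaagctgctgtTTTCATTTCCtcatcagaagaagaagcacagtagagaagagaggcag
Cyba: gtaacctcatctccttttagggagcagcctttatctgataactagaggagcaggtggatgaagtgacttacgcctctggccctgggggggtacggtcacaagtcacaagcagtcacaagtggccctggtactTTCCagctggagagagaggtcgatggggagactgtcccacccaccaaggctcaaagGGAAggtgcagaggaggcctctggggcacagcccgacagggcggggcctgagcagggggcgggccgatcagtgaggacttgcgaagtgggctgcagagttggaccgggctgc
The Cybb window held GGAA on either strand 4 times, and the match nearest its end lay inside the single composite match, which reads TTTCATTTCC on the strand shown and begins 3 bases after the start site. The Cyba window held GGAA 2 times and the composite element 0 times. In the window of Ncf1, at chr5:134229576-134229875 on the minus strand, GGAA occurred 1 time and the composite element 0 times. Of 32851 RefSeq windows of the same length, 96.0% held GGAA and 2.72% held the composite element on either strand. The motifs were chosen after the sequences and values were known, and a match is a description of the letters and not of a bound site. No window was used here for Ncf4 and Rac2.

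Of the 5 oxidase subunits, Cybb alone differed by 2-fold or more between the arrays, and it was 5.81-fold higher off fucose. The other 4 lay within 2-fold, with Ncf1 and Ncf4 somewhat higher and Cyba and Rac2 somewhat lower off fucose. Differences are given as off-fucose minus on-fucose log2 intensity. Each subunit had 1 probe set, so no second probe set checks its value. A filter on dim genes required the mean log2 intensity of both arrays to reach the overall gene median (2.88), and it kept 11090 genes and all 5 subunits. Of these 11090 genes, 263 (2.37%) were higher off fucose by 2-fold or more and 57 (0.514%) were lower by as much, against 1 and 0 of the 5 subunits. The counts over these 11090 genes became 479 and 23 when differences were centred on a T cell gene list, which moved the median of the 11090 genes from -0.05 to 0.25. The median difference of the subunits was 0.12, the value of Ncf4, and -0.0049 at a filter at the 67th percentile, where fewer subunits are kept.

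Cybb (X chromosome, 9435252 to 9487766 in GRCm38.p6) had log2 intensities of 3.66 (on fucose) and 6.19 (off fucose), and thus differed by 2.54. The on-fucose value lay 0.78 above the median of all genes on that array and the off-fucose value 3.29 above it on the other. Cybb was thus dim on one array and clearly above the bulk of genes on the other. It ranked 44th of the 11090 genes by difference. As a yardstick, the 500 genes nearest to Cybb in mean intensity had differences with a robust SD of 0.32, and 6 of them had a larger difference than Cybb. Those 6 were the fibronectin gene Fn1 (4.09), the antiviral membrane protein gene Ifitm3 (3.20), Igsf6 (3.16), the cell cycle factor gene E2f8 (2.82), Cox6b2 (2.70) and Tgfbi (2.54). Ifitm3, Igsf6, E2f8 and Cox6b2 were named after their values were seen, and Tgfbi also came in by its value, as the gene nearest to Cybb in difference. The spread is across genes of 2 arrays and mixes technical with biological differences.

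Cyba (chromosome 8, 122424771 to 122432940), the obligate partner of NOX2 in the membrane, had 10.22 on fucose and 10.10 off fucose. Its difference was -0.13, or 0.17 once centred on the T cell list. The values of Cyba thus lay close together on arrays where those of Cybb lay far apart, and the difference of Cybb exceeded that of Cyba by 2.67. Among the 500 genes nearest to Cyba in mean intensity, the differences had a robust SD of 0.19, and 166 were smaller than that of Cyba. Levels of different probe sets are not set against each other, since probe sets differ in response.

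**Figure D1:**
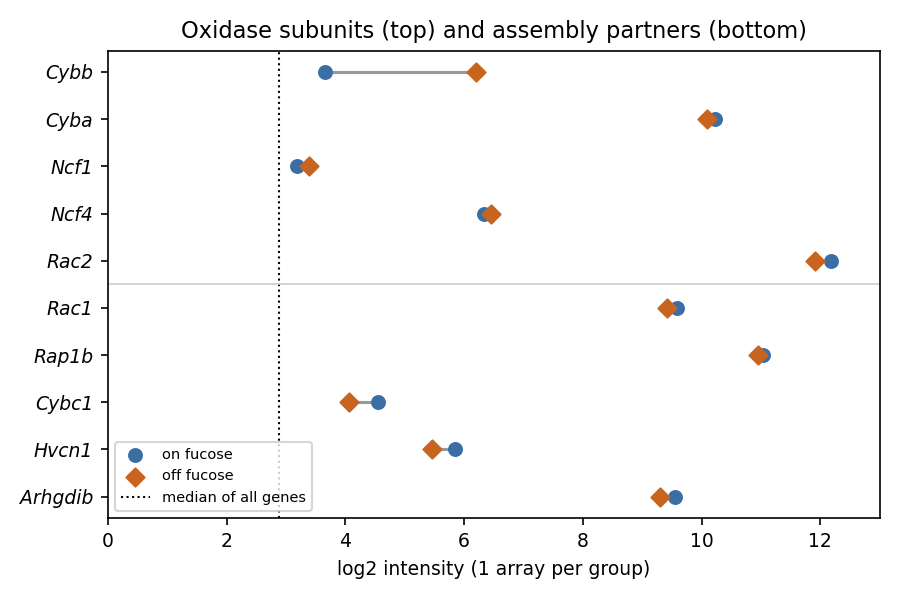
Log2 intensity (x axis) of the 5 oxidase subunits and of 5 measured assembly partners, each with 1 point per array (circles on fucose, diamonds off fucose) and a dotted line at the median of all genes. The points of Cybb lie at 3.66 and 6.19, and those of every other gene shown lie within 2-fold of each other.

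Ncf1 and Ncf4 encode cytosolic subunits that move to the membrane on activation. Ncf1 (chromosome 5, 134220053 to 134229628), whose product p47-phox carries the phosphorylation switch of assembly, had 3.18 on fucose and 3.39 off fucose. Both values lay within 0.49 of the array medians, so Ncf1 was dim on both arrays, where a true difference can be understated. Its difference of 0.21 was smaller than the robust SD of 0.32 among the 500 genes nearest in intensity. Ncf4 (chromosome 15, 78244164 to 78262582), whose product p40-phox binds phagosome membranes, had 6.33 and 6.45. Its difference of 0.12 was also smaller than the robust SD of its 500 nearest genes (0.27). Centred on the T cell list, the differences became 0.50 for Ncf1 and 0.41 for Ncf4.

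Rac2 (chromosome 15, 78559169 to 78572783), the GTPase that completes the complex in neutrophils, had 12.18 on fucose and 11.91 off fucose. The difference of -0.28 exceeded in size the robust SD of 0.18 among its 500 nearest genes, of which 55 had a smaller difference. Centred on the T cell list, it became 0.02. Rac2 was bright on both arrays, where the values of genes were spread less than in the dim range.

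**Figure D2:**
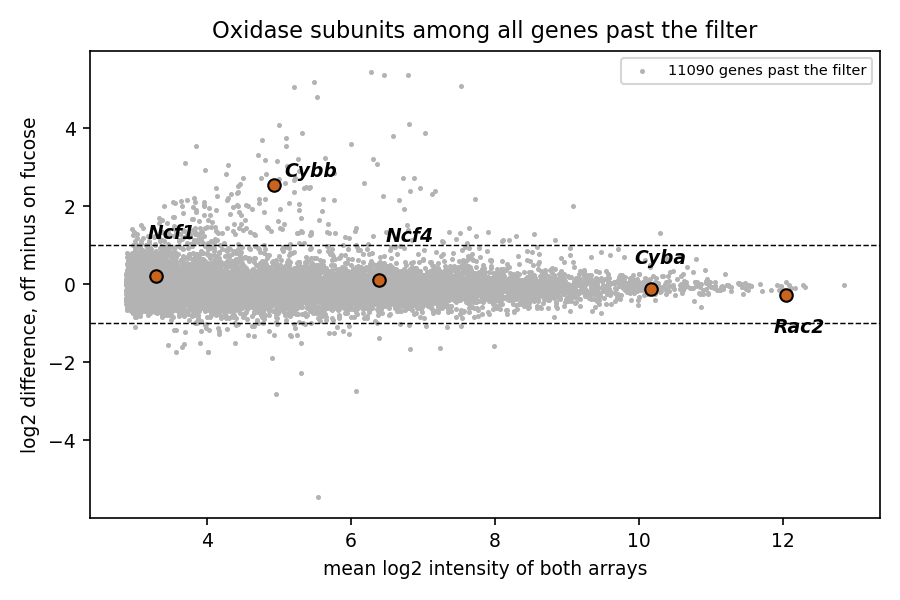
Difference (y axis, log2, off minus on fucose) against mean log2 intensity of both arrays (x axis) for 11090 genes past the filter (grey), with the 5 oxidase subunits in orange and dashed lines at 2-fold. Cybb stands at 2.54 above the upper line, while the other 4 subunits lie between -0.28 and 0.21 inside the grey band.

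Genes of proteins that help assemble or steady the oxidase had slightly lower deposited values off fucose, but not all stayed lower after T cell centring. Of 7 listed partners 5 were measured, all 5 passed the filter, and 0 were 2-fold higher or lower. Over all 22180 genes measured, 266 (1.2%) were higher by 2-fold or more and 57 (0.257%) were lower by as much, which is the background for this and the following lists. Cybc1, which encodes the chaperone EROS that NOX2 needs to reach the membrane, had 4.56 on fucose and 4.06 off fucose (-0.50). Hvcn1, the proton channel gene that balances the charge the oxidase moves, had 5.85 and 5.47 (-0.38). Arhgdib, whose product holds Rac2 in the cytosol, had 9.55 and 9.29 (-0.26). Rac1, the Rac of most tissues, had 9.58 and 9.42 (-0.17), and Rap1b, a GTPase gene related to the one copurified with the flavocytochrome, had 10.95 off fucose against 11.03 (-0.08). Neither chaperone nor channel thus had the higher off-fucose value seen in Cybb. After T cell centring Cybc1 (-0.20) and Hvcn1 (-0.09) stayed lower, and Arhgdib (0.03), Rac1 (0.13) and Rap1b (0.22) turned positive. Rap1a was on a probe set that names several genes, which had 8.05 and 7.90.

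The other NADPH oxidases gave no value above the dim range. Of 9 listed genes, which include the catalytic Nox1, Nox3, Nox4, Duox1 and Duox2, 7 were measured and 0 passed the filter. None was 2-fold higher or lower, and their differences ran from -0.69 in Nox4 to 0.21 in Noxa1. Nox4 had 2.99 on fucose and 2.30 off fucose. Values this low cannot tell a small amount of RNA from none.

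Among genes of receptors that switch the oxidase on, those of the Fc receptor chain and its partner had the largest differences. Of 15 listed receptor genes 14 were measured and 9 passed the filter, and 2 were at least 2-fold higher and 0 lower. Fcer1g, the shared signalling chain of activating Fc receptors, had 5.31 on fucose and 7.58 off fucose (2.27). Fcgr3, an activating receptor for IgG, had 3.27 and 4.73 (1.46). Clec7a, the beta-glucan receptor Dectin-1, had 3.64 and 4.56 (0.93), and Csf2rb, the common beta chain of the GM-CSF receptor family, had 2.93 and 3.67 (0.74). Itgb2, the beta chain of the leukocyte integrins, had 8.87 and 8.60 (-0.27), or 0.03 after T cell centring. The median difference over the 14 receptor genes was 0.48, against -0.0008 over all genes measured. The count of receptor genes 2-fold higher was 4 with T cell centring.

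Genes of signal carriers between those receptors and the oxidase gave a mixed picture. Of 19 listed genes 18 were measured and all of these passed the filter, with 2 at least 2-fold higher, 0 lower and a median difference of 0.02. Over genes past a filter at the 67th percentile, which leaves out dim genes, 0 were 2-fold higher and the median was -0.20. Plcg2, a phospholipase downstream of Fc receptors, had 2.76 on fucose and 4.58 off fucose (1.82). The tyrosine kinase gene Btk had 3.05 and 4.18 (1.13), and the kinase gene Syk, which relays signals of Fc receptors and Dectin-1, had 2.56 and 3.36 (0.80). The on-fucose values of Plcg2 and Syk lay below the array's median of 2.88, where array values can compress a difference and noise weighs more. The same holds for other genes below the median on fucose, among them Spi1, Nqo1, Clec12a and F13a1. Prkca, a protein kinase C gene, had 7.08 and 6.42 (-0.66). Of the Rac exchange factors on the list, Vav1 had -0.19, Prex1 -0.26 and Dock2 -0.27, and each turned positive with T cell centring (0.11, 0.04 and 0.03).

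**Figure D3:**
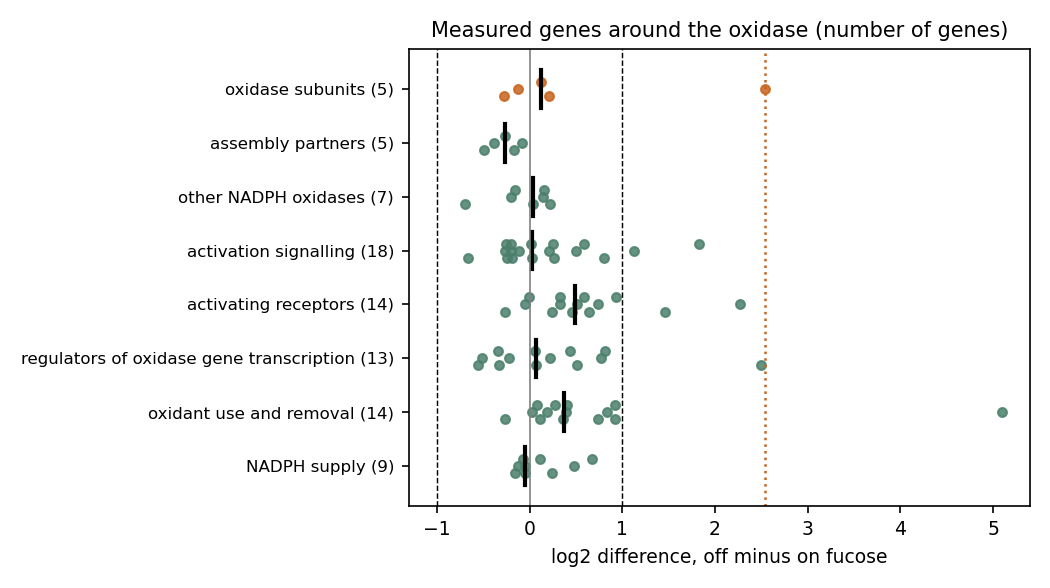
Difference (x axis, log2, off minus on fucose) of each measured gene (points) in the oxidase subunits and 7 lists around the oxidase, with the list median as a black bar, dashed lines at 2-fold and a dotted line at the value of Cybb (2.54). Most points lie within 2-fold, and only Mpo in the oxidant list lies to the right of the dotted line.

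Among transcription factors known to act on oxidase genes, Irf8 differed by nearly as much as Cybb. Irf8, a factor that binds with PU.1 and that cDC1 require, had 4.18 on fucose and 6.68 off fucose (2.50), while its second probe set had 2.81 and 3.02 (0.21). Spi1, which encodes PU.1, had 2.87 and 3.69 (0.81), and Cebpa, a factor of myeloid precursors, had 3.36 and 4.13 (0.77). Irf2, which competes with other IRF factors, had 7.67 and 7.11 (-0.56). Of 14 listed genes 13 were measured and 9 passed the filter, with 1 at least 2-fold higher and 0 lower, or 3 and 0 with T cell centring. The median difference was 0.07, or -0.34 over genes past a filter at the 67th percentile. Binding of these factors was not measured, and their part in the Cybb value was not tested.

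Mpo, the gene of the enzyme that turns hydrogen peroxide from the oxidase into hypochlorous acid, had the largest difference among the genes around the oxidase. It had 4.98 on fucose and 10.07 off fucose (5.09). Of 17 listed genes of oxidant use and removal 14 were measured and 12 passed the filter. Mpo was the 1 gene at least 2-fold higher and 0 were lower, and with T cell centring 5 were higher. The peroxide-removing enzyme genes Gpx1 and Prdx2 had 0.92 and 0.83, with 9.25 and 10.16 for Gpx1 and 8.09 and 8.93 for Prdx2. Nqo1, a quinone reductase gene, had 2.59 and 3.33 (0.74). Catalase (Cat) had -0.26, or 0.03 with T cell centring, and was the 1 gene of the 14 with a negative difference.

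Genes of enzymes that supply NADPH held no 2-fold difference. Of 11 listed NADPH supply genes 9 were measured and 7 passed the filter. Idh1, a cytosolic isocitrate dehydrogenase gene, had 5.18 and 5.85 (0.67), Taldo1, of the pentose phosphate pathway, had 7.70 and 8.18 (0.48), and Idh2 had 6.51 and 6.75 (0.24). Me2, a malic enzyme gene, had -0.15, or 0.14 with T cell centring.

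Markers of granulocyte precursors and of monocytes were higher off fucose beside Cybb. All 16 genes of the granulocyte list had positive differences, 9 of them at least 2-fold. The summed intensity of the list went from 150.3 to 3034, and 9 of the genes on fucose and 3 off fucose lay at or below the array's median. Elane, a protease gene of early granules, had 4.11 on fucose and 9.48 off fucose (5.38), Ctsg 3.77 and 9.14 (5.37), and Prtn3 2.90 and 8.08 (5.18). The 7 genes of this list within 2-fold were Ltf, Lcn2, Mmp8, Mmp9, Cxcr2, Ly6g and Retnlg. Their off-fucose values ran from 2.65 in Retnlg to 3.86 in Cxcr2. All 9 monocyte genes had positive differences, 5 at least 2-fold, with summed intensities of 1456 and 2264 and 4 genes on fucose and 1 off fucose at or below the median. Ly6c2, which T cells also express, had 10.44 and 10.89 and made up most of both sums. Fn1 had 2.96 and 7.05 (4.09), F13a1, which encodes a coagulation factor subunit, 2.77 and 5.83 (3.06), the lysozyme gene Lyz2 3.60 and 6.63 (3.03) and the chemokine receptor gene Ccr2 3.59 and 5.15 (1.55). Mature monocytes and granulocytes carry CD11b, and the labelled bead depletion was directed against it. Itgam, which encodes CD11b, had 3.07 on fucose and 3.66 off fucose (0.59), near the array medians. The part of these cells in the Cybb value was not tested. In bulk RNA, more cells of a type and more RNA per cell cannot be told apart.

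Dendritic cell markers were also in part higher off fucose. Of 11 listed cDC1 genes 10 were measured, with 4 at least 2-fold higher, 0 lower, and summed intensities of 655.2 on fucose and 992.9 off fucose, and 0 lay at or below the median on either array. Beside Irf8, the lysosomal amidase gene Naaa had 5.97 and 8.36 (2.39), the RNA sensor gene Tlr3 2.95 and 4.96 (2.01) and Wdfy4, needed for cross-presentation, 4.28 and 5.84 (1.56). Xcr1 had 2.90 on fucose, close to that array's median of 2.88, and 3.43 off fucose. Negative differences were found for 3 of the 10 genes, which T cells also express. They were -0.93 in Ly75, an endocytic receptor gene, -0.38 in Itgae, which encodes CD103, and -0.16 in Cd8a. The value of Cd8a became 0.14 with T cell centring. These 3 genes made up most of the on-fucose cDC1 sum but not of the off-fucose sum. The cDC1 sums thus understate the difference of the other 7 genes, which were all higher off fucose. Of the 8 cDC2 genes, 3 were at least 2-fold higher and 0 lower, with sums of 65.8 and 134, and 4 genes on fucose and 2 off fucose at or below the median. Sirpa, an inhibitory receptor gene, had 3.69 and 5.35 (1.66), Clec12a 2.78 and 4.89 (2.11), and Cd209a 3.32 and 4.51 (1.19; -0.13 in a second probe set). Of the 5 measured pan-dendritic genes, 2 were at least 2-fold higher and 0 lower, with sums of 1008 and 2405 and 1 gene on fucose and 0 off fucose at or below the median. Itgax, which encodes the CD11c of the selection, had 3.83 and 3.86, Flt3 had 3.19 and 4.13, H2-Ab1 9.63 and 10.94, H2-Eb1 7.54 and 8.67, and the transcription factor gene Zbtb46 2.84 and 2.98. Red pulp macrophage genes showed 0 of 9 at 2-fold in either direction and sums of 63.2 and 60.3. Of these genes 7 on fucose and 8 off fucose lay at or below the median, and C1qa had 3.49 and 2.91.

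**Figure D4:**
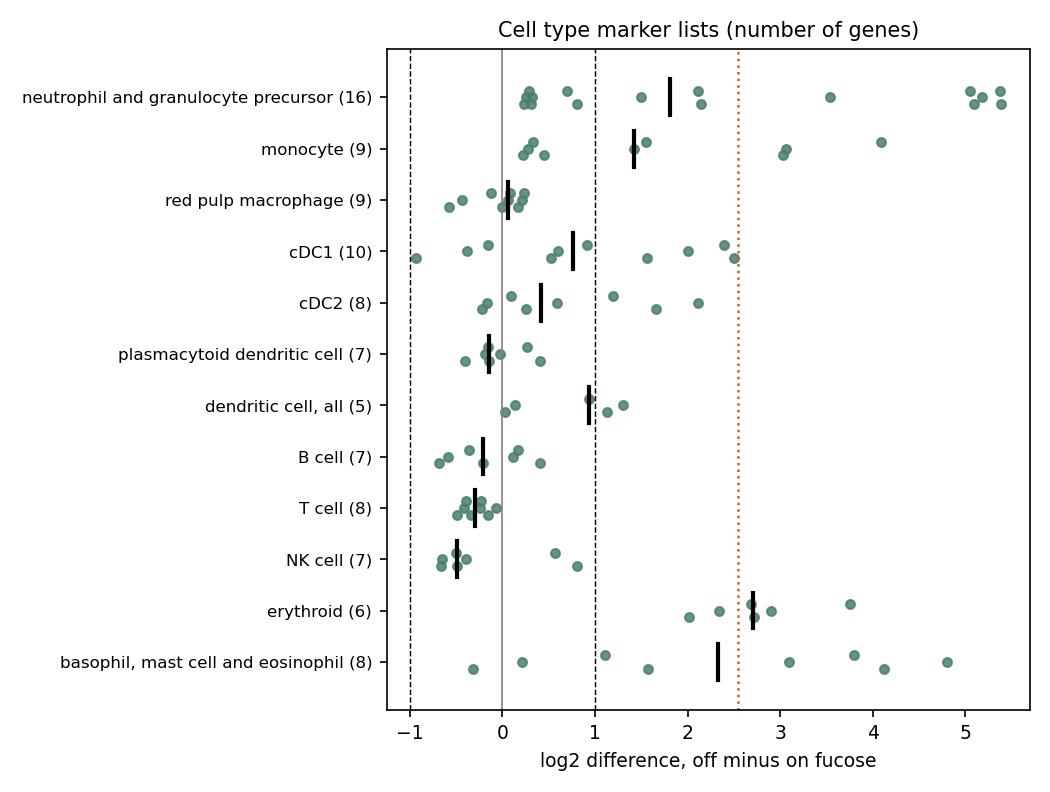
Difference (x axis, log2, off minus on fucose) of each measured gene (points) in 12 cell type marker lists, with the list median as a black bar, dashed lines at 2-fold and a dotted line at the value of Cybb (2.54). Points right of the dotted line occur in the granulocyte, monocyte, erythroid and basophil lists, and the cDC1 points end at 2.50.

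Lymphocyte markers gave no 2-fold difference. The T cell list had high values on both arrays despite the cDC1 label, with all 8 measured genes above the array medians and sums of 11474 on fucose and 9398 off fucose. Cd3e had 10.97 and 10.55. All 8 were lower off fucose by at most 0.50, and the median of -0.29 is the value used for the T cell centring. The 7 measured B cell genes had 0 of 7 at 2-fold, with sums of 81.5 and 73.0. The 7 NK cell genes had 0 of 7, with 395.5 and 271.4, and the 7 plasmacytoid dendritic cell genes 0 of 7, with 633.5 and 626.0. Prf1 (8.09 and 7.44) made up most of both NK cell sums. Bst2 (9.17 and 9.15) made up most of both plasmacytoid sums, while Siglech had 2.48 and 2.32. The 6 measured erythroid genes were all at least 2-fold higher off fucose (sums of 69.8 and 490.3), as were 6 of 8 basophil, mast cell and eosinophil genes (123.4 and 1365).

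Of the 43 genes past the filter with a larger difference than Cybb, 19 belonged to the marker lists and 24 to none of them. The 19 were 6 granulocyte genes, 4 erythroid genes, 4 basophil, mast cell and eosinophil genes, 3 monocyte genes and 2 Y-linked genes. From the dendritic, B, T or NK cell lists came 0. The lists differ in size and were chosen with earlier results of these data known. These counts are thus a description and not a test. Irf8 and Naaa, the dendritic genes nearest below Cybb on these lists, had 2.50 and 2.39.

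Cybb lies on the X chromosome, and sex-linked genes separated the arrays. Xist, the non-coding RNA of X inactivation, had 8.26 on fucose and 2.82 off fucose. Y-linked genes were higher off fucose, with 2.14 and 5.26 in Uty, 2.50 and 5.44 in Kdm5d, and 2.34 and 3.60 in Eif2s3y. The 333 X-linked genes past the filter had a median difference of -0.03, against -0.05 for 10679 autosomal genes. Of the X-linked genes 3 (0.901%) were at least 2-fold lower, against 0.506% of the autosomal genes. At least 2-fold higher were 6 (1.8%) of the X-linked genes, against 2.37% of the autosomal genes. Cybb had the largest difference of those 6, followed by Cfp (1.91), the gene of the complement protein properdin, Ammecr1 (1.62), the amino acid transporter gene Slc38a5 (1.60), Gria3 (1.17) and Btk (1.13). Apart from Cybb and Btk these were named after their values were seen. The part of sex in the Cybb value was not tested, and with these arrays it cannot be told apart from that of fucose supply.

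Genes with the value pattern most like each subunit were taken as the 3 with the nearest difference among genes within 0.5 of its mean log2 intensity, over 2 arrays. For Cybb these were Tgfbi, which encodes an extracellular matrix protein (3.61 and 6.16), Abcb10, a mitochondrial transporter gene (3.16 and 5.70), and Cldn13, a claudin gene (3.17 and 5.75), from 1545 genes. For Cyba they were Cdc42, Polr2g and Rpl7, with differences of -0.12, -0.12 and -0.13, from 138 genes. For Ncf1 they were Diaph3, Npl and Fam71f2, each at 0.21, from 3123 genes. For Ncf4 they were Mff, Polr3b and Got1, each at 0.12, from 1371 genes. Rac2 had 10 genes in range, and the nearest were COX1 (-0.15), Rpl41 (-0.13) and Rpl4 (-0.11). Where many genes lie in range, as for Ncf1, a close match in difference is common.

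**Figure D5:**
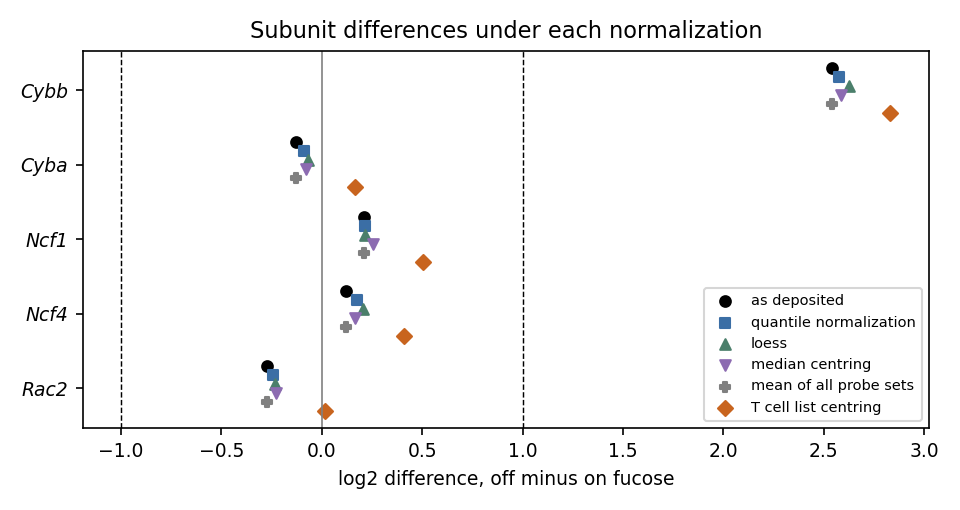
Difference (x axis, log2, off minus on fucose) of each oxidase subunit as deposited and under 5 other treatments of the values, with dashed lines at 2-fold. Cybb runs from 2.54 to 2.83 and stays beyond 2-fold under each, while Cyba and Rac2 cross 0 with centring on the T cell list.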

How the data were processed

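The deposited values were linear intensities of 41345 probe sets on each array. RMA is the one tool named in the submitters' processing notes, and its version, settings and genome build are not given in the sources used here. Per the labels, 9 ng of total RNA was labelled per array with WT Pico chemistry. The intensities ran from 2.74 to 9512, so log2 was taken. RMA equalises the distributions, so a common shift of all genes would be hidden.

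Gene names came from the platform annotation, in which 23521 probe sets had 1 symbol and 1814 several. Per gene, the probe set with the highest mean of both arrays was used. No test was run with 1 array per group. Counts are of log2 differences of at least 1 in size (2-fold). The robust SD is 1.4826 times the median absolute deviation.

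The genes named from each list were up to 4 past the filter with the largest differences in size, and all measured assembly partners. Other list members are named for their role or to complete a count. The subunits and lists were chosen with earlier results of these data known, and lists were counted over all measured members. One further gene list and 1 listed gene are not reported here. Alternatives were quantile normalization, loess (span 0.3), median centring, T cell list centring, the mean of probe sets, other filters, and thresholds of 1.5-fold and 3-fold. Python 3.11.15, pandas 2.3.3 and statsmodels 0.14.6 were used, and the calculation was tested on simulated data.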

Additional observations from a re-analysis of the deposited data

How the results depend on the processing

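The Cybb difference ran from 2.54 to 2.83 over 5 alternatives of normalization and probe set. At 2-fold, 1 subunit was higher and 0 lower under these and under both other filters, and the counts were also 1 and 0 at 1.5-fold and at 3-fold. With T cell list centring, which subtracts 1 value from every difference, Cyba had 0.17, Ncf1 0.50, Ncf4 0.41, Rac2 0.018 and the subunit median was 0.41. The list medians then were 0.033 for assembly partners, 0.33 for other NADPH oxidases, 0.32 for activation signalling, 0.78 for activating receptors, 0.37 for regulators, 0.67 for oxidant use and 0.25 for NADPH supply. The counts over genes past the filter were 479 higher and 23 lower with that centring, 640 and 473 at 1.5-fold, and 118 and 12 at 3-fold. At the 67th percentile filter, with fewer genes, the subunit median was -0.0049, the receptor median 0.93, the regulator median -0.34 and the signalling median -0.20, with 0 signalling genes 2-fold higher. Of 47 list medians under alternatives 9 moved by more than the robust SD of all genes past the filter (0.29), and of 122 list counts 12 changed by over 1.5 times. At 1.5-fold 6 receptor genes, 5 oxidant genes and 3 regulators were higher. The other NADPH oxidases had no gene past either filter, so no value there. The filter at the median for lists was chosen after seeing the data. No paired analysis was possible because there is 1 array a group, which also means that none could be omitted. Low signal limits the differences of Ncf1 and of the on-fucose value of Cybb.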
